A study of Saccharomyces cerevisiae with 118 samples.

Results

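The genes described here are 10 growth and stress regulators of the TOR and protein kinase A (PKA) pathways of budding yeast: SCH9, TOR1, RIM15, MSN2, MSN4, GIS1, YAK1, SFP1, DOT6 and TOD6. They were chosen by name and are 10 of the 6664 nuclear genes in the tables. The tables hold poly(A) RNA-seq of 118 samples of MEP diploid cells. The mother enrichment program (MEP) labels cells with biotin at the start of ageing, makes their daughters inviable after β-estradiol addition and lets the labelled mothers be purified on streptavidin beads.

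Samples are named here by strain, medium and age, where log is the growing culture and 24, 48 and 72 h are times of ageing in rich medium with the carbon source given. On galactose, cox9 gal80 and cat8 had 2 samples at each of the 3 ages (log, 24 h and 48 h), snf4 had 1 at log and 2 at 24 h, and wild type had 3 at each age. On glucose, the strain that overexpresses the respiratory activator gene HAP4 from a GPD promoter (Pgpd-HAP4) had 2 samples at each age, against wild type with 4 samples at 24 h and at 48 h, 3 at log and 1 at 72 h. Wild type on fructose had 2 samples at each age, while raffinose/galactose, raffinose, acetate and sucrose had 1 sample at each age measured. In the media shift, wild-type cells aged on galactose or glucose were kept on the same sugar or moved to the other for a further 24 h, with 3 samples a group. The labels of the shifted samples give their age as log, and the 24 h on each medium is taken from the study's methods. The sorts hold glucose-grown cells of 48 h, divided by staining with wheat germ agglutinin (WGA), with 2 samples each of low, medium and high WGA for Pgpd-HAP4 and 1 each of low and high for wild type. In the second set of Pgpd-HAP4 sorts the sample titles name GFP as high, medium and low where the labels say low, medium and high WGA. Finally, 13 deletion strains on glucose (hap4, gcn4, clb5, adr1, sip4, cat8, rox1, mig1, pmr1, yak1, dot6 tod6, tec1 and snf4) had 1 sample at log and 1 at 48 h each, and pmr1 also had 1 at 24 h. Every sample, controls included, carries the mother enrichment system. Comparisons with log phase set purified mothers against a growing culture, so age and the purification and make-up of the culture cannot be told apart in them.

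TOR complex 1 (TORC1) and PKA signal that nutrients are plentiful. TORC1 is a kinase complex activated at the vacuole and acts in part through the kinase Sch9, while PKA is switched on by cAMP downstream of Ras. When both are active, ribosome production is high and stress genes are silent. When they are turned down, the kinases Rim15 and Yak1 and the factors Msn2, Msn4 and Gis1 switch on stress and post-diauxic genes, and the repressors Dot6 and Tod6 silence genes for ribosome biogenesis. These proteins are controlled largely by phosphorylation and by movement into and out of the nucleus. The measurements here are of their mRNAs, not of the activity of the proteins.

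A value called normalised reads is a read number after scaling between the samples of a table. Changes are log2 differences between groups on quantile-normalised values, given with their standard error (SE), and a gene is called where its adjusted p from limma is below 0.01. The 59 samples with carbon sources and mutants on galactose held 2901884 to 15288342 counted reads, and over all tables the range was 561582 to 22453467. Over 69 pairs of replicates the lowest chi-square per gene was 2.51, which is more than counting error gives. The p-values measure only the spread between these samples. The silent mating locus gene HMRA1 and MATALPHA2 had reads in every sample of the first table, and MATALPHA1 was at 0 in 58 of 59. Receptor genes of haploid cells were low but not at 0, for example STE2 with 31 to 162 reads. UBC9, a gene of the mother enrichment system, fell with age to a mean of 255 normalised reads at 48 h on galactose, against 482 at log phase, and to 47 at 48 h on glucose, against 497 at log phase. Its part in the changes described here was not tested. In bulk samples, fewer cells of a type and less RNA per cell cannot be told apart.

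All 10 genes have intact reading frames in the reference, at the coordinates of the tables (R64). SCH9 (YHR205W) lies at chrVIII:509363-511837, TOR1 (YJR066W) at chrX:559416-566828, RIM15 (YFL033C) at chrVI:69115-74427 and YAK1 (YJL141C) at chrX:147967-150390. The genes of the stress factors are MSN2 (YMR037C) at chrXIII:344403-346517, MSN4 (YKL062W) at chrXI:323228-325120 and GIS1 (YDR096W) at chrIV:637139-639823. The regulators of ribosome genes are SFP1 (YLR403W) at chrXII:925568-927619, DOT6 (YER088C) at chrV:333176-335188 and TOD6 (YBL054W) at chrII:117589-119166. SFP1 lies on the right arm of chromosome XII beyond the rDNA, a region called ChrXIIr here, and the median change of the other ChrXIIr genes is given beside its values. None of the 10 has another place in the genome that shares a stretch of 75 bases, the read length. YAK1 overlaps the dubious frame IRC9 on the same strand, which shares 245 of its 393 bases with it.

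The 500 bases before the start codon were searched on both strands for 4 motifs of these pathways. The stress response element (STRE) bound by Msn2 and Msn4 was taken as AGGGG, found at least once before 33.73% of 6659 genes, and the PAC motif bound by Dot6 and Tod6 as GATGAG, found before 27.95%. The RRPE motif of ribosome biogenesis genes was taken as AAAATTTT (11.8%) and the post-diauxic element of Gis1 as TAGGGAT (3.003%). TOD6 had 4 PAC motifs and 1 RRPE, and 0.2553% of genes, 17 in all, had 4 or more PAC motifs. YAK1 had 3 STREs, and 1.847% of genes had 3 or more. DOT6 and RIM15 had 1 PAC each, TOR1 and GIS1 had 1 STRE each, SCH9 had 1 STRE, 2 PACs and 1 RRPE, SFP1 had 1 post-diauxic element at the edge of the window, and MSN2 and MSN4 had none of the 4. The sites are shown for TOD6 and YAK1, whose motifs are repeated, and for DOT6, the paralogue of TOD6. They are written 5′ to 3′ along the gene's own strand from the R64 genome, with the motif in capitals. CTCATC and CCCCT are the PAC motif and the STRE read from the other strand. A match of letters is a description and not a shown site of binding.
TOD6 PAC, chrII:117222-117247, plus strand: cctatcttgtCTCATCatcttgttag
TOD6 PAC, chrII:117329-117354, plus strand: tgaaaattgaGATGAGatgcgatgcg
TOD6 PAC, chrII:117344-117369, plus strand: gatgcgatgcGATGAGatgcgagacc
TOD6 PAC, chrII:117365-117390, plus strand: agaccaatgcGATGAGacacttttct
TOD6 RRPE, chrII:117289-117316, plus strand: cggtgaaaaaAAAATTTTttctctgctg
DOT6 PAC, chrV:335228-335253, minus strand: ttcatccgacCTCATCgaatagcttc
YAK1 STRE, chrX:150625-150649, minus strand: accctaaccgCCCCTtctgaaccat
YAK1 STRE, chrX:150598-150622, minus strand: caagcaatgcCCCCTcctcagattt
YAK1 STRE, chrX:150582-150606, minus strand: ctcagatttaCCCCTtctgggctga

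Per kilobase of reading frame, DOT6 had the highest level of the 10 in wild type at log phase on glucose, with 1003 ± 170 normalised reads per kb (SD, n = 3). TOD6 with 550 ± 124 and SCH9 with 533 ± 20 did not differ beyond their spread, and the same held for SFP1 (426 ± 30) and MSN2 (367 ± 53). YAK1 followed with 240 ± 53 and MSN4 with 178 ± 4. RIM15 (135 ± 10), TOR1 (130 ± 11) and GIS1 (104 ± 16) were lowest, and neighbours among these 3 lay within their spread. At 48 h on glucose the order had changed. DOT6 stood at 1521 ± 239 per kb, and SFP1 (512 ± 46), MSN4 (498 ± 93) and YAK1 (464 ± 74) followed within their spread (SD, n = 4). After 48 h on galactose MSN4, at 797 ± 76 per kb, was second to DOT6 at 1968 ± 119 (SD, n = 3).

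**Figure D1:**
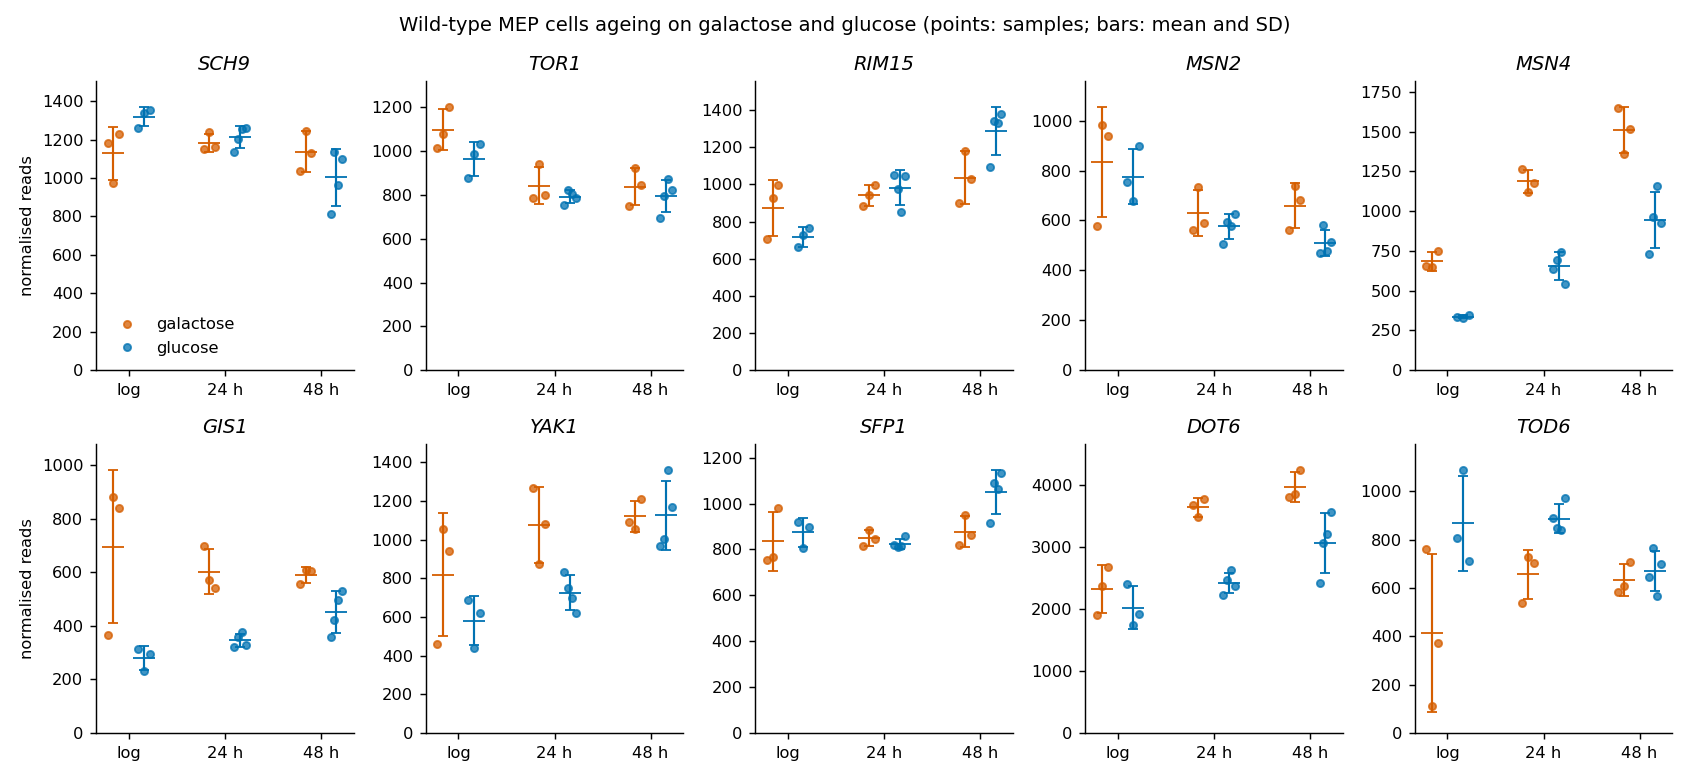
Normalised reads of the 10 genes in each wild-type sample of the carbon source table, on galactose (left) and glucose (right) at log, 24 h and 48 h, with 1 panel and 1 linear axis a gene. Points are samples and bars the mean and SD. MSN4 climbs with age on both sugars and lies higher on galactose, RIM15 and YAK1 climb on glucose, and TOD6 and GIS1 are widely spread at log phase on galactose (TOD6 111 to 761, GIS1 367 to 881).

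On glucose the genes of 2 kinases that act against growth, 1 stress factor and 1 repressor of ribosome genes rose with age. RIM15, YAK1, MSN4 and DOT6 rose and MSN2 fell between log phase and 48 h, so that 5 of the 10 were called, where 52.2% of all 5785 genes tested were (20.7% higher and 31.5% lower). The groups did not overlap in 67.5% of these genes. All 5 calls stood in each of the 7 fits that left out 1 sample, under each other setting fixed for this comparison and without the intensity trend of limma described with the methods.

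RIM15 encodes the kinase that is held in check by TORC1, Sch9 and PKA and that starts the quiescence programme when released. It had 1095, 1343, 1328 and 1378 normalised reads at 48 h, against 661, 728 and 765 at log phase, and the groups did not overlap. The change was 0.88 ± 0.09 on the log2 scale (adjusted p = 2.8e-05). At 24 h the values were 1053, 977, 854 and 1048, between those of log phase and 48 h, with a change of 0.46 ± 0.09 from log phase (adjusted p = 0.00265). That earlier call was lost without 1 of 2 log phase samples and with the experiment as a block (adjusted p = 0.011). From 24 h to 48 h RIM15 rose by a further 0.43 ± 0.09 (adjusted p = 0.00225). The single sample at 72 h had 1427, above all 4 samples at 48 h. That sample came from another experiment than the younger glucose samples, so age and experiment cannot be told apart in it.

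YAK1 encodes a kinase that opposes PKA and is itself restrained by it. Its values were 968, 1006, 1361 and 1168 at 48 h, against 689, 438 and 618 at log phase, a change of 0.96 ± 0.16 (adjusted p = 0.000428). The 24 h samples (834, 752, 699 and 622) overlapped those at log phase, and the change then was 0.31 ± 0.15 (adjusted p = 0.108). The call came with the later step: the change from 24 h to 48 h was 0.64 ± 0.12 (adjusted p = 0.00128), without overlap, as for 47% of all genes.

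SCH9, the kinase that TORC1 phosphorylates and that promotes ribosome production, had 815, 1138, 963 and 1098 at 48 h, against 1262, 1340 and 1354 at log phase. The groups did not overlap, as for 67.5% of all genes, and the change of −0.31 ± 0.11 was not called (adjusted p = 0.0329). SCH9 was called on the values as deposited and in a fit of all samples of the table. TOR1, a catalytic subunit of TORC1, had 697, 793, 872 and 824 at 48 h, against 879, 986 and 1031 at log phase, with a change of −0.25 ± 0.10 (adjusted p = 0.0389). Quantile normalisation lowers the median change of all genes here to −0.14, against 0.013 as deposited, a shift of 0.15 that bears on small values of this comparison.

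Msn2 and Msn4 are paralogous zinc finger activators that bind the same STRE, and their mRNAs moved in opposite directions. MSN4 had 731, 960, 1158 and 925 normalised reads at 48 h, against 337, 328 and 344 at log phase. The change was 1.35 ± 0.14 (adjusted p = 2.21e-05), the largest of the 10 genes in this comparison. MSN2 had 468, 583, 478 and 514 at 48 h, against 753, 678 and 897 at log phase, a change of −0.67 ± 0.12 (adjusted p = 0.000784). Both had moved by 24 h. MSN4 then had 635, 694, 742 and 539, a change of 0.88 ± 0.11 (adjusted p = 0.000248), which was called in all 7 fits without a sample and with the block. MSN2 had 507, 592, 580 and 627, a change of −0.44 ± 0.11 (adjusted p = 0.00904), but this call was kept in 1 of 7 fits without a sample and was lost with the block (adjusted p = 0.0161) and without the trend. RIM15, MSN4 and MSN2 were 3 calls of 10 at 24 h, where 31.8% of all genes were called (13.8% higher, 18.0% lower).

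The ratio of MSN4 to MSN2 per kb was 2.08 on average at 48 h on glucose (range 1.74 to 2.71) and 1.27 at 24 h, against 0.49 at log phase (range 0.43 to 0.54). MSN2 had more mRNA per kb than MSN4 in all 3 log phase samples and less in all 4 samples at 48 h. The 72 h sample, from another experiment, stood at 1.33. These ratios describe the same values and were not tested.

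GIS1, which encodes the activator of post-diauxic genes that works downstream of Rim15, had 359, 421, 496 and 532 at 48 h, against 314, 231 and 296 at log phase. The groups did not overlap, and the change of 0.42 ± 0.16 was not called (adjusted p = 0.0391). It was called without 48 h replicate 1 and on the values as deposited.

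Among the regulators of ribosome genes, the paralogous repressors DOT6 and TOD6 had changes of opposite sign. DOT6 had 2410, 3068, 3211 and 3557 at 48 h, against 2398, 1734 and 1924 at log phase, a change of 0.94 ± 0.14 (adjusted p = 0.00019). TOD6 had 644, 763, 568 and 697 at 48 h, against 805, 1087 and 710 at log phase, a change of −0.38 ± 0.14 that was not called (adjusted p = 0.04). From 24 h to 48 h TOD6 fell by 0.43 on the log2 scale (SE 0.10, adjusted p = 0.00404), a call kept in 4 of 8 fits without a sample and lost without the trend. DOT6 rose over the same step by 0.56 ± 0.10 (adjusted p = 0.00104), kept in all 8 and lost on the values as deposited. MSN4 rose by 0.51 ± 0.13 over this step (adjusted p = 0.00933), a call kept in 1 of 8 and lost without the trend. The ratio of DOT6 to TOD6 per kb averaged 3.63 at 48 h, against 1.90 at log phase.

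SFP1 encodes the activator of ribosomal protein and ribosome biogenesis genes that TORC1 keeps in the nucleus. It had 915, 1089, 1065 and 1135 at 48 h, against 922, 805 and 897 at log phase, a change of 0.30 ± 0.09 that was not called (adjusted p = 0.0148), and it was called without 48 h replicate 1. From 24 h to 48 h it rose by 0.35 ± 0.07 (adjusted p = 0.00202), from samples with 818, 811, 815 and 858. The median change of 277 other ChrXIIr genes was 0.36 between log phase and 48 h, and that of 296 was 0.22 between 24 h and 48 h, next to 0.30 and 0.35 for SFP1. The part of the region in its rise was not tested. TOD6, DOT6, RIM15, YAK1, MSN4 and SFP1 made 6 calls of 10 between 24 h and 48 h, against 28.9% of all genes (13.6% higher, 15.3% lower). The comparisons among the 3 ages share their samples.

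On galactose fewer genes were called in this table, 4.95% of 5799 between log phase and 48 h (3.04% higher, 1.91% lower), although the groups did not overlap in 39.4% of genes, and 39.8% were called for galactose throughout against log phase in the media shift. Of the 10, 2 were called here. MSN4 had 1650, 1362 and 1514 normalised reads at 48 h, against 654, 648 and 752 at log phase, a change of 1.13 ± 0.11 (adjusted p = 0.000871). The call was lost without 48 h replicate 3. DOT6 had 3802, 3844 and 4238 at 48 h, against 1905, 2366 and 2681 at log phase, without overlap. Its change of 0.85 ± 0.14 (adjusted p = 0.00872) was kept in 1 of 6 fits without a sample, and was lost with the experiment as a block (adjusted p = 0.0129) and without the trend. MSN4 was the 1 member called at 24 h, with 1262, 1121 and 1176 and a change of 0.80 ± 0.10 from log phase (adjusted p = 0.00483), where 2.33% of all genes were called (1.71% higher, 0.621% lower). This was kept in 1 of 6 fits without a sample and lost with the block (adjusted p = 0.0308).

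RIM15, which rose on glucose, had 898, 1182 and 1028 at 48 h on galactose, against 704, 925 and 995 at log phase. The groups overlapped and the change was 0.24 ± 0.16 (adjusted p = 0.34). YAK1 had 1092, 1057 and 1212 at 48 h, against 458, 1057 and 943 at log phase. The groups met at 1057, and its change of 0.52 ± 0.29 was not called (adjusted p = 0.248). TOR1 had 749, 921 and 845 at 48 h, against 1015, 1079 and 1200 at log phase, without overlap and without a call (−0.40 ± 0.12, adjusted p = 0.0563). SCH9, SFP1, MSN2 and GIS1 changed by 0.00, 0.08, −0.34 and −0.17, all within overlapping groups, and the other ChrXIIr genes had a median change of 0.016.

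The difference between the changes on galactose and on glucose was tested as an interaction, in which 15.5% of all genes were called (6.81% higher, 8.67% lower). None of the 10 was in this fit with limma (2526 genes had an unadjusted p below 0.05), and none without the trend. RIM15 came closest, with a smaller change on galactose by 0.66 on the log2 scale (−0.66 ± 0.18, adjusted p = 0.0162), and it was called with the experiment as a block (−0.73, adjusted p = 0.0064) and with all samples of the table in 1 fit (−0.66, adjusted p = 0.00439). Without galactose log replicate 1, RIM15 (−0.81, adjusted p = 0.00124), GIS1 (−0.98, adjusted p = 0.00336) and TOD6 (1.93, adjusted p = 0.00299) were called in the interaction. In the comparison of 48 h with log phase on galactose alone, GIS1 was then called too (−0.56, adjusted p = 0.00533).

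**Figure D2:**
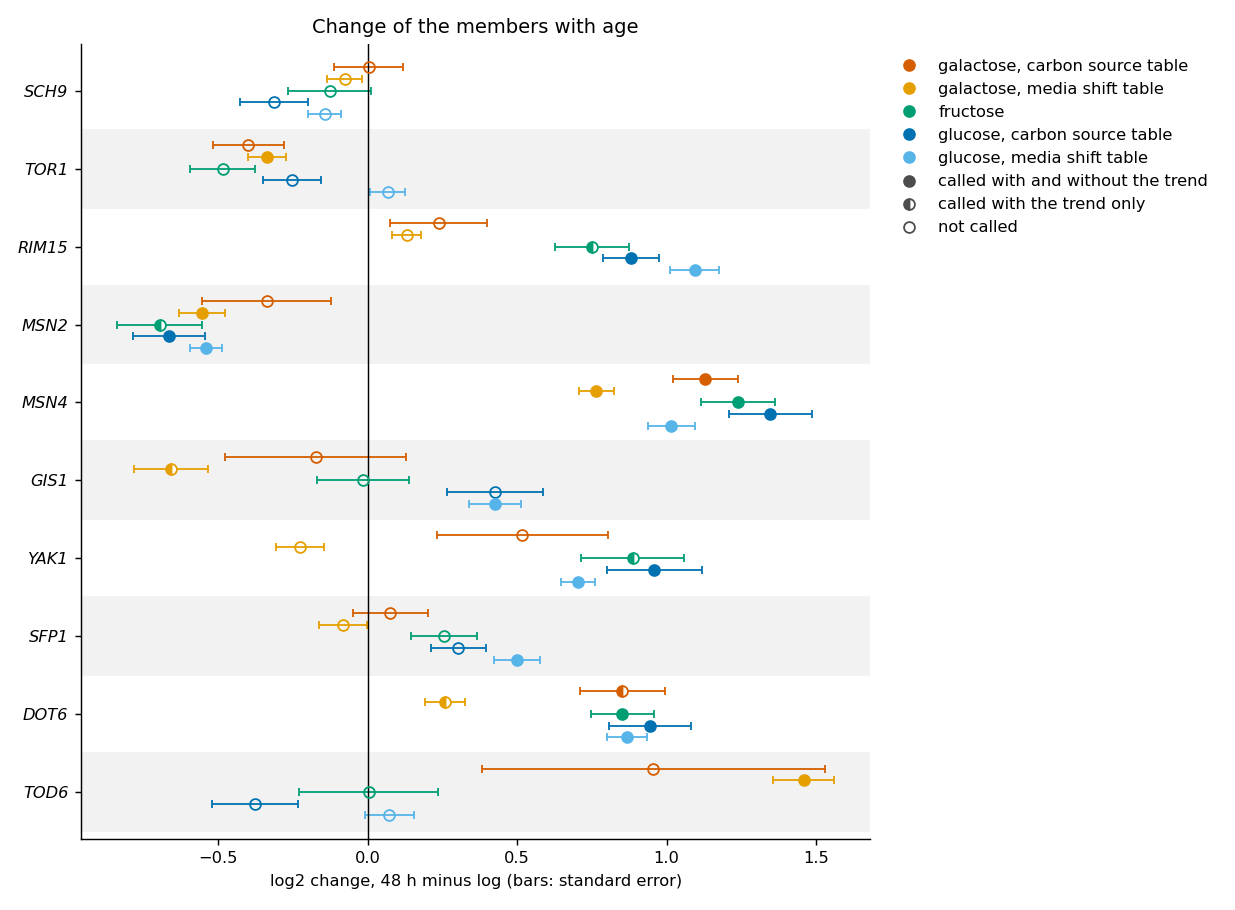
Log2 change of each gene after 48 h of ageing relative to log phase, in wild type on galactose, fructose and glucose, with both the carbon source table and the media shift table where a sugar is in both. Bars are the SE. Filled symbols are calls made with and without the intensity trend, part-filled symbols calls made with the trend alone, and open symbols are not called. RIM15 lies near 0 on galactose (0.24 and 0.13) and between 0.75 and 1.09 on fructose and glucose, while MSN4 is above 0.7 in all 5.

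The 3 galactose samples at log phase were widely spread for TOD6, GIS1 and YAK1. TOD6 had 761, 111 and 373 normalised reads in replicates 1, 2 and 3, each far from the next. GIS1 had 881 and 842 in replicates 2 and 3 and 367 in replicate 1, and YAK1 had 1057 and 943 against 458. The 3 galactose log phase replicates were sequenced in 3 different lanes. The lane of replicate 1 also holds glucose log replicate 3 and fructose log replicate 1. In glucose log replicate 3, TOD6 (1087, against 805 and 710) was also the highest of its group, and GIS1 (231, against 314 and 296) and YAK1 (438, against 689 and 618) the lowest. In fructose log replicate 1 the order was the same, with 893 against 531 for TOD6, 329 against 438 for GIS1 and 484 against 700 for YAK1. The raffinose/galactose log phase sample of that lane had 946 for TOD6, 403 for GIS1 and 497 for YAK1. MSN4 did not follow this pattern, with 654 in galactose log replicate 1 and 328 in glucose log replicate 3. What sets these samples apart was not tested.

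Galactose was set against glucose at the same age in the carbon source table. At log phase MSN4 had 654, 648 and 752 normalised reads on galactose, against 337, 328 and 344 on glucose. The difference of 0.93 ± 0.09 (adjusted p = 0.000923) was called in all 6 fits without a sample and was the 1 call among the 10, where 11.7% of all genes were called (7.23% higher, 4.46% lower). MSN2 had 579, 982 and 937 on galactose, against 753, 678 and 897 on glucose, and did not differ beyond this spread (0.05 ± 0.23). GIS1 had 367, 881 and 842 on galactose, all above 314, 231 and 296 on glucose, with a difference of 1.12 ± 0.35 (adjusted p = 0.0507). The groups did not overlap in 47.7% of all genes. TOD6 had 761, 111 and 373 on galactose, against 805, 1087 and 710 on glucose, and a difference of −1.57 ± 0.68 (adjusted p = 0.121). Without galactose log replicate 1 both were called, GIS1 at 1.55 (adjusted p = 0.000238) and TOD6 at −2.26 (adjusted p = 0.00769). In the media shift table, where this difference was not tested, both genes lay apart at log phase. GIS1 ran from 876 to 1021 on galactose there, against 301 to 357 on glucose. TOD6 ran from 166 to 222, against 531 to 655, and MSN4 from 725 to 833, against 314 to 348. Of the 10, only SFP1 overlapped between the sugars there, and the share over all genes was not counted.

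At 24 h, 4 of the 10 differed, against 19.8% of all genes (9.32% higher, 10.5% lower). MSN4 was higher on galactose by 0.83 ± 0.10 (adjusted p = 0.000167), with 1262, 1121 and 1176 on galactose and 635, 694, 742 and 539 on glucose. GIS1 was higher by 0.76 ± 0.10 (697, 571 and 541 on galactose, against 323, 357, 376 and 330 on glucose, adjusted p = 0.000253), and DOT6 by 0.55 ± 0.06 (3670, 3473 and 3775, against 2219, 2462, 2619 and 2364, adjusted p = 0.00011). These 3 were called in all 7 fits without a sample. TOD6 was lower on galactose, with 538, 727 and 702 against 888, 847, 841 and 971 (−0.49 ± 0.10, adjusted p = 0.00518), a call kept in 2 of 7 such fits and lost without the trend. In this table the repressor genes DOT6 and TOD6 lay on opposite sides of glucose. The media shift table was not tested for this difference at 24 h. DOT6 ran there from 2968 to 3515 on galactose, against 2170 to 2514 on glucose. TOD6 overlapped, with 552 to 787 on galactose and 640 to 802 on glucose.

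At 48 h fewer members were called. MSN4 was the 1 call of 10 (18.6% of all genes, 8.70% higher and 9.94% lower), at 1650, 1362 and 1514 on galactose against 731, 960, 1158 and 925 on glucose. The difference was 0.60 ± 0.14 (adjusted p = 0.0068), kept in 1 of 7 fits without a sample and lost without the trend. RIM15 now pointed the other way, lower on galactose at 898, 1182 and 1028 against 1095, 1343, 1328 and 1378 on glucose, with overlap (−0.41 ± 0.10, adjusted p = 0.0108). With the block RIM15 was called (−0.56, adjusted p = 0.000206), as it was with all samples in 1 fit (adjusted p = 0.00652). SFP1 had a difference of −0.33 ± 0.09 (adjusted p = 0.0167) beside a median of −0.39 over 304 other ChrXIIr genes, and was called with the block (−0.44, adjusted p = 0.00175). DOT6, at 3802, 3844 and 4238 on galactose against 2410, 3068, 3211 and 3557 on glucose, had a difference of 0.05 ± 0.11 after quantile normalisation and 0.38 as deposited, and was not called.

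On fructose, a sugar that enters glycolysis as glucose does, the changes with age had the signs seen on glucose for every gene called on both. MSN4 had 1175 and 1201 at 48 h, against 550 and 453 at log phase (1.24 ± 0.12, adjusted p = 0.000636). DOT6 had 3052 and 3499, against 2125 and 2120 (0.85 ± 0.11, adjusted p = 0.00135). RIM15 (0.75 ± 0.12), YAK1 (0.89 ± 0.17) and MSN2 (−0.70 ± 0.14) were called with the trend alone. The 5 calls of 10 stood beside 30.5% of all genes (13.5% higher), and between 0 and 2 remained when 1 of the 4 samples was left out. TOR1, with 745 and 715 against 979 and 1064, missed the threshold (−0.49 ± 0.11, adjusted p = 0.0103).

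Carbon sources with 1 sample an age gave no test. The acetate and raffinose samples come from another experiment than the glucose samples at log phase and 48 h. Medium and experiment cannot be told apart between them. TOD6 was low at log phase in 2 media that yeast uses slowly, with 98 normalised reads on acetate and 153 on raffinose, against 710 to 1087 on glucose. GIS1 was high in the same samples, at 1014 on acetate and 1233 on raffinose, against 231 to 314 on glucose. YAK1 had 1340 and 1488 there, against 438 to 689 on glucose. At 48 h TOD6 stood at 253 on acetate and 638 on raffinose, and GIS1 at 892 and 704. MSN4 behaved otherwise: on acetate it had 374 at log phase, near its glucose level, and 947 at 48 h. On raffinose it had 708 at log phase and 1550 at 48 h. In raffinose/galactose and sucrose too, MSN4 was higher at 48 h (1472 and 1081) than at log phase (814 and 641), and so were DOT6 (3727 and 3104, against 2403 and 2220), RIM15 (995 and 1322, against 768 and 812) and YAK1 (1274 and 1381, against 497 and 693).

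Ratios of the paralogues showed the same media apart, again across experiments for acetate and raffinose against glucose. DOT6 exceeded TOD6 per kb 28.2 times on acetate and 15.7 times on raffinose at log phase, against 1.90 times on average on glucose. On galactose at log phase the ratio averaged 8.09 but ran over the range 1.96 to 16.7, with the lowest value in replicate 1, and it was 4.92 at 48 h. MSN4 over MSN2 was 0.36 on acetate at log phase and 1.56 at 48 h. On galactose the averages for log phase, 24 h and 48 h were 0.97, 2.15 and 2.61, and on fructose 0.68, 1.77 and 2.47.

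**Figure D3:**
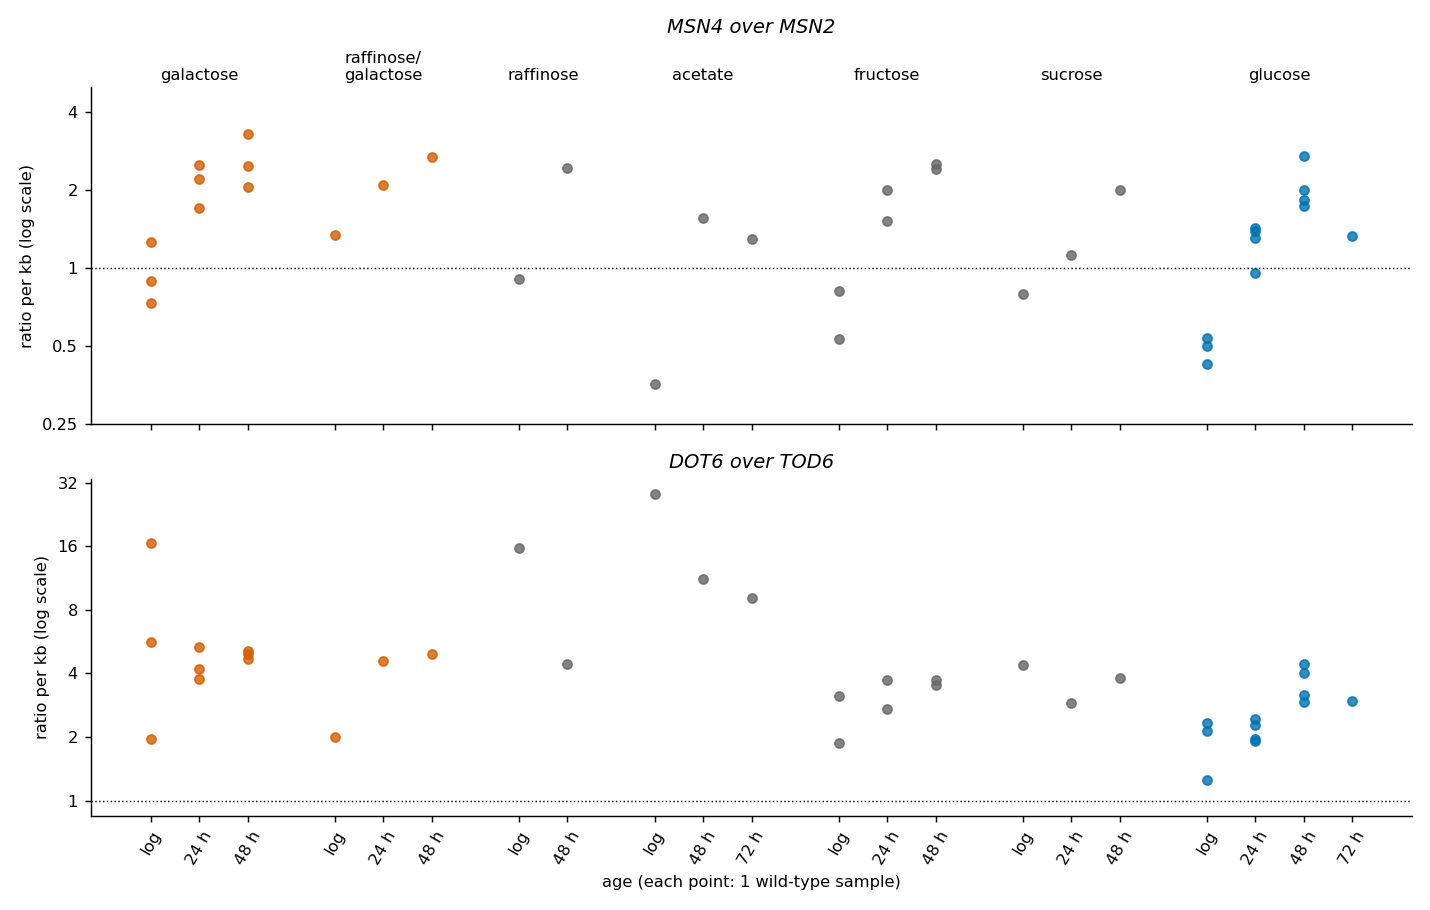
Ratio of normalised reads per kb of MSN4 over MSN2 (above) and of DOT6 over TOD6 (below) in each wild-type sample of the carbon source table, by carbon source and age, on log axes. Each point is 1 sample and the dotted line marks a ratio of 1. MSN4 over MSN2 lies below 1 in all 3 glucose samples at log phase and above 1 in all 4 at 48 h, and DOT6 over TOD6 reaches 28.2 on acetate at log phase.

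Mutants that block respiration or its regulators on galactose were compared with wild type at the same hours of ageing. All cox9 gal80, snf4 and cat8 samples came from the experiment of wild-type replicate 2, and wild-type replicates 1 and 3 from other experiments. Strain and experiment therefore cannot be fully told apart here. By the study's account, cox9 gal80 had a far lower replicative age at 48 h, and the part of replicative age was not tested. Cox9 is a subunit of cytochrome oxidase and Gal80 a repressor of galactose genes, so cox9 gal80 cells use galactose without respiration. MSN4 had 585 and 703 normalised reads in cox9 gal80 at 48 h, against 1650, 1362 and 1514 in wild type, with a difference of −1.19 ± 0.13 (adjusted p = 0.00258), the 1 call of 10 where 2.97% of all genes were called (0.810% higher, 2.16% lower). It was kept in 2 of 5 fits without a sample and lost without the trend. UBC9 had a mean of 55 normalised reads in cox9 gal80 at 48 h, against 255 in wild type (−3.35, adjusted p = 0.0463), and its part in the difference was not tested. DOT6 was just short of a call, with 2298 and 2038 against 3802, 3844 and 4238 (−0.68 ± 0.12, adjusted p = 0.01), and GIS1 had 398 and 404 against 556, 611 and 603 (−0.58 ± 0.11, adjusted p = 0.0174). All 3 genes were separated from wild type at 48 h, as were 44.7% of all genes. At log phase MSN4 had 664 and 456 in cox9 gal80, against 654, 648 and 752 in wild type, and none of the 10 was called by limma. There 0.0345% of all genes were called, all of them lower, and 647 genes had an unadjusted p below 0.05.

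Snf4 is the activating subunit of the AMP-activated kinase Snf1. At 24 h DOT6 had 2215 and 2248 in snf4, against 3670, 3473 and 3775 in wild type (−0.59 ± 0.07, adjusted p = 0.000359), a call lost without either snf4 sample. RIM15 had 1267 and 1278, against 885, 944 and 995 (0.46 ± 0.08, adjusted p = 0.00279), kept in 2 of 5 fits and lost without the trend. These were 2 calls of 10, against 12.6% of all genes (6.40% higher, 6.15% lower). UBC9 fell by 2.47 on the log2 scale in the same comparison. The study reports few snf4 cells recovered because they died young, and the part of replicative age was not tested.

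In cat8, which lacks an activator of gluconeogenic genes, none of the 10 was called by limma at log phase or 48 h, where 0.0172% of all genes (all lower) and 0.439% (0.0843% higher, 0.354% lower) were called. At an unadjusted p below 0.05 there were 176 and 749 genes. DOT6 again stood lower at 48 h without overlap, at 2405 and 2757 against 3802, 3844 and 4238 in wild type (−0.58 ± 0.10, adjusted p = 0.0246). The same lack of overlap held for 28.9% of all genes. Pgpd-HAP4 on glucose gave no call among the 10 either, at log phase (3.39% of all genes called, 3.32% higher and 0.0691% lower, 926 below an unadjusted p of 0.05) or 48 h (0.444%, 0.411% higher and 0.0329% lower, 491 genes). YAK1 had 367 and 416 in Pgpd-HAP4 at log phase, against 689, 438 and 618 in wild type, without overlap (−0.58 ± 0.19, adjusted p = 0.191), as for 33.3% of all genes. No further tool was run for these counts of 0.

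The media shift asked whether the levels follow the sugar at hand or the earlier one. Cells kept on glucose for the full time again raised RIM15 (1581, 1326 and 1389, against 724, 651 and 669 at log phase, 1.09 ± 0.08), MSN4 (678, 746 and 789, against 348, 314 and 323, 1.02 ± 0.08), YAK1 (0.70 ± 0.06) and DOT6 (0.87 ± 0.07). MSN2 fell, at 624, 625 and 642 against 877, 909 and 882 (−0.54 ± 0.05). GIS1 (492, 483 and 563, against 357, 301 and 346, 0.43 ± 0.09) and SFP1 (1384, 1228 and 1143, against 901, 933 and 886, 0.50 ± 0.08) were also called here. These 7 calls of 10 stood beside 67.1% of all genes (27.1% higher, 40.0% lower) and each held in all 6 fits without a sample and without the trend. GIS1 was lost with all samples of the table in 1 fit. The median change of 281 other ChrXIIr genes was 0.48, next to 0.50 for SFP1.

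Cells kept on galactose showed a change that the first table had left uncertain. TOD6 had 514, 575 and 546 normalised reads after galactose throughout, against 166, 183 and 222 at log phase, a change of 1.46 ± 0.10 (adjusted p = 1.41e-06). The log phase samples of this table lay close together, in contrast to the 111 to 761 of the other table. GIS1 went the opposite way, with 753, 507 and 610 against 1021, 1010 and 876 (−0.66 ± 0.12, adjusted p = 0.00115), a call lost without the trend. MSN4 rose (1327, 1285 and 1276, against 833, 741 and 725, 0.77 ± 0.06), MSN2 fell (734, 638 and 620, against 940, 919 and 1058, −0.55 ± 0.08) and TOR1 fell (997, 834 and 879, against 1157, 1151 and 1115, −0.34 ± 0.06). DOT6, at 3714, 3019 and 3527 against 3115, 2921 and 2864, overlapped its log phase samples, and its call (0.26 ± 0.07) was kept in 1 of 6 fits and lost without the trend. The 6 calls of 10 stood beside 39.8% of all genes (18.2% higher, 21.5% lower). RIM15 was not called (1014, 957 and 1004, against 914, 908 and 901, 0.13 ± 0.05, adjusted p = 0.0449). Its groups did not overlap, as for 61.8% of all genes.

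After 24 h on galactose, cells moved to glucose differed from cells kept on galactose in 14.6% of all genes (6.59% higher, 8.01% lower) and in 3 of the 10. TOD6 had 697, 691 and 682 in cells moved to glucose, against 514, 575 and 546 in cells kept on galactose (0.37 ± 0.07). GIS1 had 455, 409 and 431, against 753, 507 and 610 (−0.48 ± 0.12), and MSN4 had 1023, 1054 and 1032, against 1327, 1285 and 1276 (−0.28 ± 0.06). No groups overlapped, which was so for 37.6% of all genes. Each of the 3 calls was lost without the trend and with all samples of the table in 1 fit. After 24 h on glucose, a move to galactose (8.66% of all genes called, 5.15% higher and 3.51% lower) changed MSN4 alone of the 10, at 980, 939 and 986 against 678, 746 and 789 in cells kept on glucose (0.38 ± 0.07, adjusted p = 0.00515), again with the trend alone.

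Among cells that ended on galactose, those with an early life on glucose differed from those with an early life on galactose in 26.5% of all genes (12.8% higher, 13.6% lower) and in 3 of the 10. RIM15 had 1360, 1194 and 1262 after glucose, against 1014, 957 and 1004 after galactose (0.40 ± 0.07, adjusted p = 0.000645). MSN4 had 980, 939 and 986, against 1327, 1285 and 1276 (−0.38 ± 0.06, adjusted p = 0.000267), and SFP1 had 1208, 1046 and 1079, against 900, 784 and 764 (0.47 ± 0.08, adjusted p = 0.000785). All 3 were called in each of the 6 fits without a sample, and SFP1 with the trend alone, beside a median of 0.38 over 292 other ChrXIIr genes. With the experiment as a block, DOT6 was called as well (0.24, adjusted p = 0.000152). Among cells that ended on glucose 4.52% of all genes were called (2.77% higher, 1.75% lower). MSN4 had 678, 746 and 789 after early glucose, against 1023, 1054 and 1032 after early galactose (−0.49 ± 0.07, adjusted p = 0.00315), kept in 3 of 6 fits and lost without the trend. With the block RIM15 (0.30, adjusted p = 0.00747) and SFP1 (0.42, adjusted p = 0.00131) were called there too, SFP1 beside a median of 0.31 over 301 other ChrXIIr genes. In all 4 of these comparisons the MSN4 values did not overlap, lower after early glucose and higher with late galactose. Between 37% and 56% of all genes did not overlap in each. The 4 comparisons share their samples.

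WGA binds the chitin of the bud scars that divisions leave on a mother cell. SFP1 had 4767 and 6362 normalised reads in low WGA cells of Pgpd-HAP4, against 361 and 403 in high WGA cells, a difference of 3.85 ± 0.25 (adjusted p = 2.27e-05), and 712 and 1302 in medium WGA cells. The 300 other ChrXIIr genes had a median of 2.85, and 250 of them were called higher. YAK1 had 1570 and 2242 in low WGA cells, against 505 and 640 in high (1.72 ± 0.28, adjusted p = 0.00151), and RIM15 had 1384 and 1878, against 530 and 693 (1.41 ± 0.27, adjusted p = 0.00348). Both kinase genes were lost without the trend, and RIM15 also with quantile normalisation (adjusted p = 0.0111) and without high WGA replicate 1. GIS1 had 466 and 495 in low WGA cells, against 189 and 289 in high (1.04 ± 0.33, adjusted p = 0.0305). The 495 rests on 34 reads, in a low WGA library of 565971. The 3 calls of 10 stood beside 31.6% of all genes (16.7% higher, 14.8% lower). UBC9 was lower in low WGA cells, with a mean of 45 against 525 normalised reads, and its part in the difference was not tested.

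The wild-type sorts, 1 sample each, had the same order for the called genes. SFP1 stood at 2054 in low and 488 in high WGA cells, YAK1 at 1144 and 772, and RIM15 at 1378 and 930. DOT6 was also higher in low WGA cells (5357 and 3782). MSN4 was lower there in wild type (598 in low and 919 in high), while in Pgpd-HAP4 it was not (854 and 786 in low, against 684 and 550 in high). The wild-type 598 rests on 46 reads in a library of 561582, and the 919 on 576 in a library of 5389581. The 786 in Pgpd-HAP4 rests on 54 reads of 565971.

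**Figure D4:**
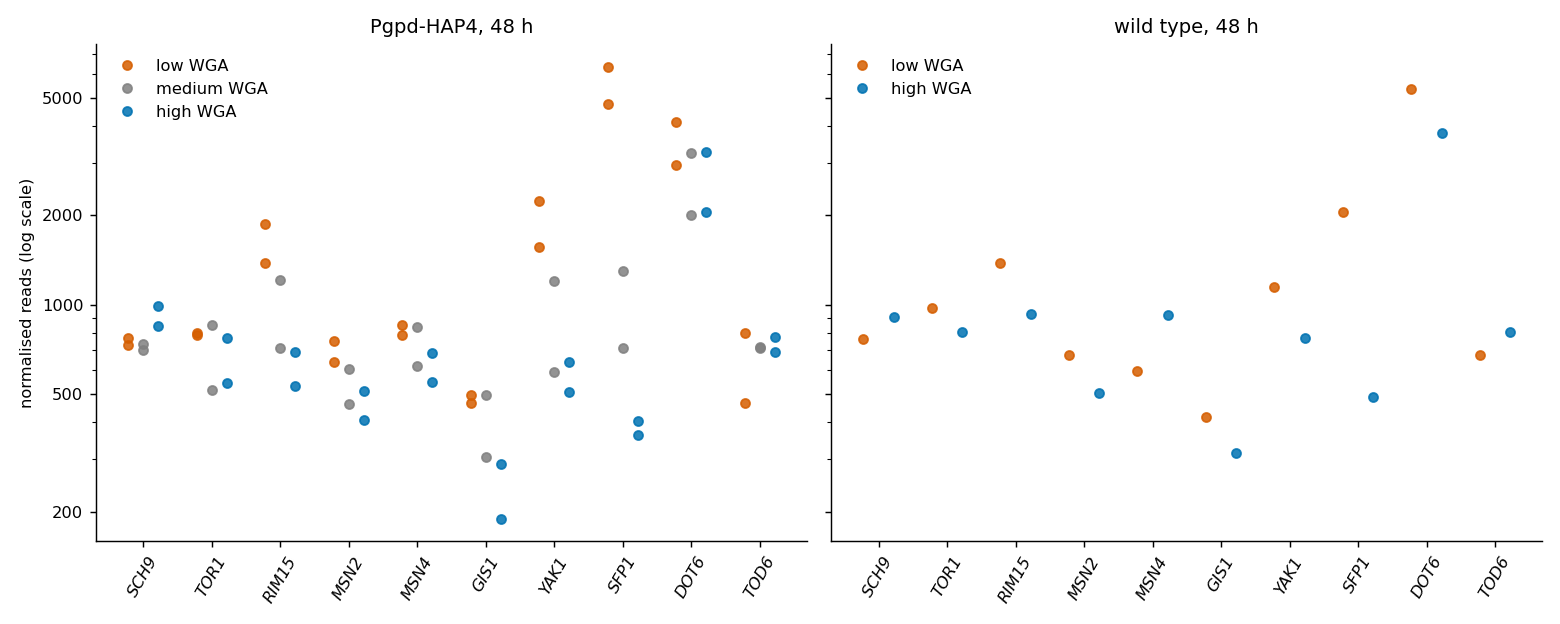
Normalised reads of the 10 genes in sorted cells aged for 48 h on glucose, on a log axis, for low, medium and high WGA of Pgpd-HAP4 (left) and low and high WGA of wild type (right). Each point is 1 sample. SFP1 is separated from low to high WGA by the widest gap (4767 and 6362 against 361 and 403), and RIM15 and YAK1 fall in the same direction.

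In the 13 deletion strains on glucose the genes deleted were nearly without reads, which checks the labels: YAK1 had 5 reads at log and 1 at 48 h in yak1 (420 to 2295 in the 31 other samples of that table). In dot6 tod6, DOT6 had 5 and 21 reads (1200 to 5892 elsewhere) and TOD6 had 1 and 15 (367 to 2055 elsewhere). With 1 sample a strain and age there was no test within a strain, and the 13 strains are different genotypes and not replicates. The hap4 and gcn4 samples came from another experiment than the other strains at log and 48 h. The wild-type samples of that table came from neither of these experiments. RIM15 was higher at 48 h than at log in all 13, with a median change of 0.88 and a range of 0.11 in cat8 to 1.11 in tec1. SFP1 was also higher in all 13 (median 0.37), and so was the median of 280 other ChrXIIr genes, at 0.17 to 0.94 (median over strains 0.50). SFP1 lay above that regional median in 5 of 13 strains. MSN2 was lower in all 13 (median −0.52, from −1.09 in sip4 to −0.22 in snf4). DOT6 was higher in the 12 strains that carry it (median 0.51, from 0.13 in rox1 to 0.84 in clb5). Of all 5821 genes, 20.5% were higher in every strain and 19.4% lower in every strain. MSN4 was higher in 12 of 13, YAK1 in 10 of 12, GIS1 in 9 of 13 and TOD6 in 7 of 12, while SCH9 was lower in 11 of 13 and TOR1 in 9 of 13.

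The strain mig1, which lacks a glucose repressor, accounted for the exception in MSN4. MSN4 had 547 at 48 h in mig1, against 647 at log (−0.24), and YAK1 (−0.31) and GIS1 (−0.72) also had lower values at 48 h there. At log phase mig1 had 650 normalised reads of GIS1, where the median of the other strains was 293, and 329 of TOD6, where it was 704. In snf4, the strain that lacks Snf1 activation, TOD6 stood the other way, with 1363 beside a median of 650. MSN4 had 185 there beside a median of 372. MSN4 stood at 776 at 48 h in snf4, the widest difference among the strains (2.07). These 4 were the values of the members at least 1 log2 unit from the median of the other strains, own deletions left out. At log phase 1.89% of all gene and strain pairs were that far, and at 48 h, when no member was, 3.08%.

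**Figure D5:**
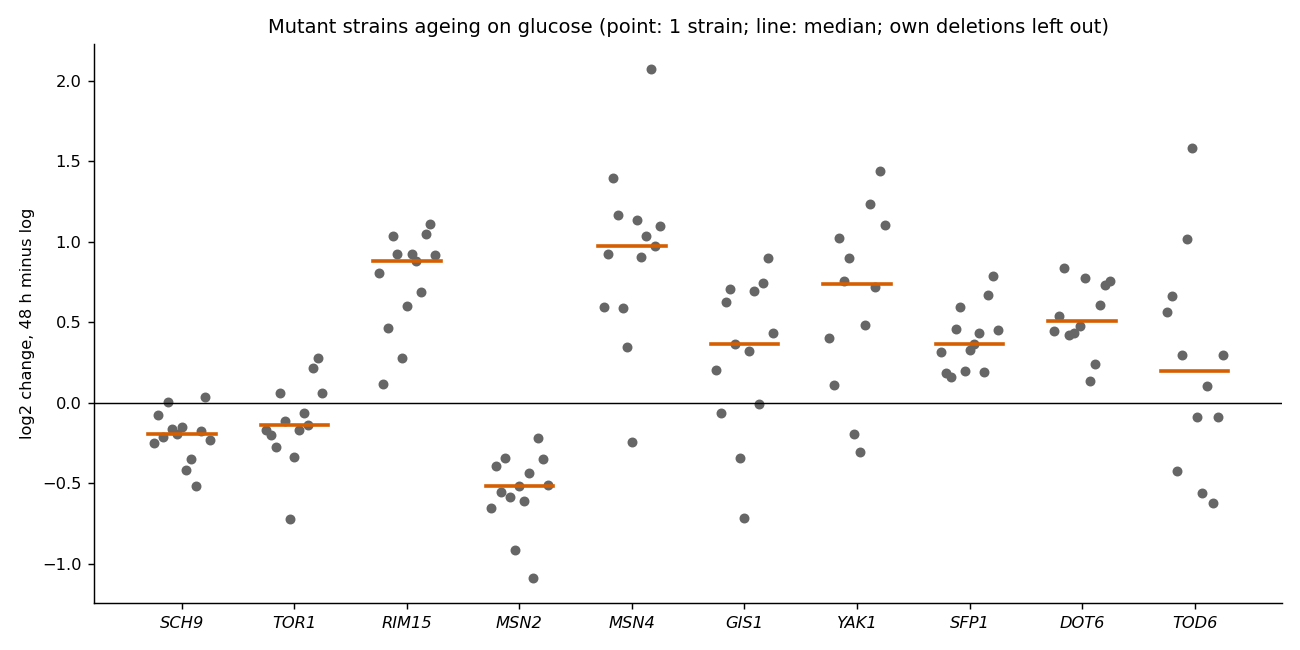
Log2 change between log phase and 48 h on glucose in each of 13 deletion strains, 1 point a strain, with a line at the median and a gene's own deletion strain left out. RIM15 and SFP1 are above 0 in all 13 (the median of the other ChrXIIr genes is 0.17 to 0.94), MSN2 is below 0 in all 13, and MSN4 and TOD6 have wide ranges, from −0.24 in mig1 to 2.07 in snf4 and from −0.63 in snf4 to 1.58 in mig1.

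Loss of the repressors could be set beside their targets. Of 22 ribosome biogenesis reporter genes, 20 lay above the median of the other strains at log phase in dot6 tod6, with a median distance of 0.42 on the log2 scale (all genes −0.013), and 19 at 48 h, with 0.26 (all genes −0.027). Other strains did so as well: all 22 lay above in snf4 (0.52) and in wild type (0.29) at log phase, and all 22 in cat8 (0.86) and hap4 (0.51) at 48 h. In yak1, 2 of the 22 lay above the median at either age, with medians of −0.20 at log and −0.23 at 48 h. Of the stress reporter genes (STRE and post-diauxic), 17 of 21 lay above in yak1 at log phase (0.23) and 8 of 22 at 48 h (−0.06). In wild type 2 of 21 lay above at log phase and 22 of 22 at 48 h. For wild type, and for hap4 and gcn4 against most other strains, strain and experiment cannot be told apart in these counts.

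The rest of the pathway was followed in 6 lists of signalling genes and these 2 lists of reporters. On glucose between log phase and 48 h, 19 of 21 stress reporters tested rose and none fell, with a median of 1.94 (all genes −0.14). Of all genes, 20.7% were called higher and 31.5% lower there. The membrane chaperone gene HSP12 had 6079 normalised reads at 48 h, against 41 at log phase, and the small heat shock protein gene HSP26 had 4515 against 49 (6.09). The glycogen phosphorylase gene GPH1 had 2084 against 134. Of 22 ribosome biogenesis genes, 11 fell and 1 rose (median −0.37), among them UTP22 (1271 against 2796), CIC1 (1024 against 2043) and GAR1 (1755 against 3500). On fructose 13 of 21 stress reporters rose and 1 of 22 ribosome biogenesis genes fell, with 1 that rose.

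In the carbon source table, on galactose between log phase and 48 h, 5 of 22 stress reporters rose and none fell. No ribosome biogenesis gene was called by limma, with a median of 0.30 (all genes −0.05). Of all genes, 3.04% were called higher and 1.91% lower. HSP26 had 2374 against 175 and DDR2 had 296 against 48. HSP12 had 10598 against 2175, so its log phase level was far above the 41 of glucose. At log phase itself 9 of 21 stress reporters were higher on galactose than on glucose and none lower (median 1.57). Of all genes, 7.23% were called higher and 4.46% lower in that comparison. GPH1 had 7260 on galactose against 134 on glucose, and the hexokinase gene HXK1 had 44932 against 1039. The ribosome biogenesis list had a median of −0.74 there, with 1 of 22 called, GAR1 (1936 on galactose, against 3500 on glucose). In the media shift table, cells kept on galactose raised 13 and lowered 1 of 22 ribosome biogenesis genes (median 0.30), and TOD6 rose there. Of all genes, 18.2% were called higher and 21.5% lower. Cells kept on glucose lowered 15 and raised none, where 40.0% of all genes were called lower and 27.1% higher. Stress reporters split on galactose, with 10 that rose and 6 that fell, HXK1, the phosphoglucomutase gene PGM2 and the trehalose synthase subunit gene TSL1 among them.

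Signalling genes were called in both directions on glucose between log phase and 48 h, where 20.7% of all genes were called higher and 31.5% lower. With 16 of 84 genes in the 6 lists higher and 18 lower, nothing is read from these counts. Among the TOR complexes 1 of 11 rose (AVO2, 0.57) and 2 fell, SLM2 (−0.80) among them, and of the inputs of TORC1 1 of 16 rose, IML1 (0.47), and 3 fell, VAM6 (−0.49), SEA4 (−0.41) and WHI2 (−0.34). Of the outputs of TORC1 4 of 18 rose and 4 fell. The kinase gene YPK2 had 1511 at 48 h against 341 at log phase (2.12), and YPK3, whose product phosphorylates ribosomal protein S6, had 310 against 671 (−1.29). In the Ras and PKA list 5 of 18 rose and 3 fell: PDE1, for a cAMP phosphodiesterase, had 613 against 228 (1.19), the receptor gene GPR1 1349 against 941 (0.61), and the exchange factor gene CDC25, which lies in ChrXIIr, rose by 0.82. Both RAS2 (1130 against 2609, −0.98) and RAS1 (538 against 1020, −0.92) fell, as did the catalytic subunit gene TPK3 (−0.38). Of the genes around Sch9 and Rim15, IGO1 (0.52), RPH1 (0.46) and PKH2 (0.67) were among 4 of 11 that rose, and IGO2 (−0.75) and the Pho85 inhibitor gene PHO81 (847 against 1834) among 3 that fell. Igo1 and Igo2 are the paralogous targets through which Rim15 protects mRNAs, and their mRNAs parted on glucose as those of Msn2 and Msn4 did.

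Of 10 regulators of ribosomal protein genes, 1 rose and 3 fell on glucose. RAP1 had 508 normalised reads at 48 h against 1240 at log phase (−1.30), HMO1 1000 against 2208 (−0.97) and FHL1 676 against 867 (−0.36). IFH1, the coactivator that binds Fhl1, had 6924 against 2461 (2.13), and it lies in ChrXIIr, where the median was 0.36. On galactose the same lists held 4 calls between log phase and 48 h in the carbon source table, where 4.95% of all genes were called: YPK3 (−0.67), IGO2 (−0.70) and RAP1 (−0.85) fell, and RGS2, for a regulator of the G protein above adenylate cyclase, had 343 against 62 (2.25). No gene of the TOR complexes or of the TORC1 inputs was called by limma in that table. In the media shift table, where 18.2% of all genes were called higher and 21.5% lower for galactose throughout against log phase, 1 of 11 genes of the TOR complexes rose and 3 fell, and 1 of 16 inputs of TORC1 rose and 6 fell. There 2 of 18 outputs of TORC1 rose and 5 fell, 5 of 18 Ras and PKA genes rose and 5 fell, 1 of 11 genes around Sch9 and Rim15 rose and 6 fell, and 1 of 10 regulators of ribosomal protein genes rose and 5 fell.

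Genes most like each member were found by Pearson r over the 38 wild-type samples of the carbon source table and 5644 genes, as a description. The samples share libraries, scaling and carbon sources. TOD6 was followed closely by DBP7 (r = 0.98), MRD1 (0.97) and DHR2 (0.97), 3 genes of ribosome biogenesis. GIS1 was nearest to TPS2, GSY1 and GLK1 (0.94, 0.93 and 0.93), genes of trehalose synthesis, glycogen synthesis and glucose phosphorylation. YAK1 was nearest to the overlapping frame IRC9 (0.96), which had 3 and 4 reads in the 2 yak1 samples and 73 to 511 in 31 others, and then to SDS24 (0.93) and NVJ1 (0.92). MSN4 was nearest to the cell wall gene CWP2 (0.92), RIM15 to IQG1 (0.92), MSN2 to EDE1 (0.90), SCH9 to PUF4 (0.86) and DOT6 to GID8 (0.86). The 3 genes nearest to SFP1, CDC25 (0.86), ROM2 (0.82) and SSQ1 (0.81), all lie in ChrXIIr. Among the members themselves, GIS1 and TOD6 ran against each other (r = −0.83), YAK1 ran with DOT6 and TOR1 with MSN2 (0.82 each), and RIM15 ran with SFP1 (0.79).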

How the data were processed

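Poly(A) RNA of growing cultures (log phase) and of purified mother cells was sequenced (75 bp, single end). The authors trimmed reads with Trim Galore (0.6.6), aligned them with HISAT2 (2.1.0) to R64 with the 2 micron plasmid, and quantified them in SeqMonk on the strand opposite each reading frame. The deposited values are log2 of size-factor scaled reads, scaled separately in 4 tables, and 100% of them recover as whole reads. Of 6692 genes a table, 28 mitochondrial genes were left out.

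Tests here used limma (3.58.1, R 4.3.3) with quantile normalisation of the compared groups, an intensity trend in the variance prior and Benjamini-Hochberg adjustment. A gene was tested where the second group of the difference had a mean log2 of 2 or more (4 normalised reads). Sorts used values as deposited and a mean of 4 or more (16 reads) over both groups. Printed reads are the deposited ones, and tests were made within a table. The recovered reads were not tested as counts. The design named limma and did not say whether to use the trend. On glucose 48 h minus log, 8 settings were compared (2834 to 3042 genes called, 5 members in each). The trend was taken because it gave the 3019 calls of an earlier analysis. Without it 34 of 55 member calls stand and 21 do not. The fits were tested on simulated data.

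The members and gene lists were chosen with earlier results of these data known. From 8 lists (129 genes, of which 1 was not found in the tables) at most the 3 largest rises and 3 largest falls among called genes with groups that do not overlap were named. For each member the 3 genes with the highest Pearson r were named, and in strains with 1 sample an age the members at least 1 log2 unit from the median of the others.

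Experiments named in the titles, or the lane where none is named, served as replicate numbers. Deviations of samples with the same number correlated in every pair for 24 h against log phase on glucose (0.112 to 0.223). The same held for 48 h against log phase on galactose (0.125 to 0.211). It held too for early glucose against early galactose ending on galactose (0.116 to 0.124). In these comparisons the fit with the block is the paired one, and the changes and counts of calls reported first come from fits without it. Alternatives were another normalisation, other filters, a pseudocount of 1, all samples of a table in 1 fit, the block and leaving out each sample. No trend, a robust prior and the filter before normalisation were added after seeing the data. Python 3.11.15, numpy 2.4.6, pandas 2.3.3 and matplotlib 3.10.9 were used for the rest.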

Additional observations from a re-analysis of the deposited data

Results flagged for a closer look

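SFP1 at 24 h on glucose was set apart by 1 sample of 4. Replicate 4 had 858 normalised reads, and the 3 others lay between 811 and 818. The gap took up most of the range of the group and passed Dixon's 95% limit for 4 samples. It was 1 flag in 20 groups of 4 tested, and chance flags about 1 in 20. All 4 values lay below the 915 to 1135 of the 48 h samples.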

How the results depend on the processing

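No called member changed direction. Over single genes and counts, 2660 values under planned settings kept their side of the threshold or stayed within 1.5 times the count, and so did 685 under settings added after seeing the data. Under planned settings 130 values of single genes fell out of the call and 50 came into it, and under added settings 22 and 3. The counts of members called that moved are given here, and the causes were not tested. Without a filter there were 1 for 48 h against log phase on galactose, 0 at 24 h, 2 on fructose, 0 for galactose against glucose at 48 h, 0 for cox9 gal80 at 48 h, 0 for snf4, 3 for galactose throughout against log phase, 0 for late galactose against late glucose, 1 for early glucose against early galactose ending on galactose and 0 ending on glucose. With all samples of a table in 1 fit there were 3 for 24 h against log phase on galactose, 3 for galactose against glucose at log phase and 2 at 48 h, 1 for the difference of ageing, 2 for cox9 gal80 at 48 h, 1 for snf4 and 0 for late glucose against late galactose. On the values as deposited, cox9 gal80 at 48 h had 2.

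Without the trend (added) there were 1 for galactose at 48 h, 2 for fructose, 0 for galactose against glucose at 48 h, 0 for cox9 gal80 at 48 h, 1 for snf4, 0 for both late comparisons, 0 for early glucose against early galactose ending on glucose and 1 for the sorts. A robust prior (added) gave 2 for galactose against glucose at 48 h and 2 for cox9 gal80 at 48 h.

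With the replicate block there was 1 for 24 h against log phase on glucose and 1 for 48 h against log phase on galactose, where the pairing held. Elsewhere the titles name a shared experiment or lane, but the deviations of such samples did not correlate above 0.1 in every one of at least 3 pairs. There the block gave 0 for 24 h against log phase on galactose, 3 for galactose against glucose at 48 h, 1 for the difference of ageing and 3 for early glucose against early galactose ending on glucose. It also brought YAK1 for galactose against glucose at 24 h (0.80) and RIM15 for late glucose against late galactose (0.32) into the call. In the third paired comparison it added DOT6.

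Leaving out 1 sample gave 0 to 3 for galactose at 48 h and at 24 h, 0 to 2 for fructose, 1 to 3 for galactose against glucose at log phase, 3 to 5 at 24 h and 0 to 2 at 48 h, 0 to 3 for the difference of ageing, 0 to 2 for cox9 gal80 at 48 h, 0 to 3 for snf4, 0 to 1 for late galactose against late glucose, 0 to 2 for late glucose against late galactose, 0 to 2 for early sugars ending on glucose and 3 to 4 ending on galactose, 2 to 4 for the sorts, 5 to 7 for 48 h and 2 to 3 for 24 h against log phase on glucose, and 4 to 5 between 24 h and 48 h. Arms left with 1 sample take their spread from the other group. Carbon sources and strains with 1 sample an age have no replicate check.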
